A study of Mus musculus with 6 samples.

Results

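The interferon-stimulated genes described here were 36 mouse genes taken by symbol from the deposited table of 22564 protein-coding gene rows, all 36 of which were found. By textbook knowledge, 25 of them respond mainly to type I interferon and 11 mainly to interferon gamma, although many genes of both classes respond in part to either. They were measured in quadriceps, the large muscle at the front of the thigh, as total RNA depleted of ribosomal RNA. The knockout group held 3 samples of genotype MCK-Cre+/-, Fbxw7 flox/flox, in which Cre recombinase is driven by the muscle creatine kinase promoter and floxed Fbxw7 is removed in muscle fibres. The control group held 3 samples that carried the same floxed Fbxw7 alleles without Cre. The controls lacked Cre, so loss of Fbxw7 and presence of the Cre transgene cannot be told apart, and the labels used here give neither age nor sex. The labels do not say that the 3 samples of a group are separate animals, so the p-values measure only the spread between these samples.

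Interferons are secreted proteins that set cells into an antiviral state. Type I interferons bind the receptor built from IFNAR1 and IFNAR2, and the kinases JAK1 and TYK2 then act on factors that include STAT2, which with IRF9 is part of the complex ISGF3. ISGF3 binds the interferon-stimulated response element (ISRE) in promoters of antiviral genes. Interferon gamma, made mainly by T cells and natural killer cells, acts through IFNGR1, IFNGR2, JAK1 and JAK2 and leads to binding at gamma-activated sites (GAS). Fbxw7, the gene deleted in the knockout muscle, encodes the substrate-recognition part of a ubiquitin ligase.

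Promoters are shown first because this pathway is known to act through sequences in promoters. The RefSeq promoter table, build GRCm38.p6, held 30 promoters of 25 of the 36 members, each spanning 250 bases before to 50 bases after a transcription start. Called members are shown if a motif was found. Igtp and Ifit1 were added after their values were seen, as a neighbour of Irgm2 and as a type I gene whose knockout values were all below control. The stretches run 5′ to 3′ over the 150 bases before the start and 30 bases from it, with the first transcribed base counted as position 0. Capitals mark matches to the ISRE core (GAAA, any 2 bases, GAAA) on either strand and to the GAS core TTCNNNGAA, which is its own reverse complement. Matches of 1 motif may overlap each other. The stretches are Irgm2 at chr11:58214827-58215006 on the plus strand, Igtp at chr11:58199406-58199585 on the plus strand, Isg15 at chr4:156200789-156200968 on the minus strand, Ddx58 at chr4:40239796-40239975 on the minus strand and Ifit1 at chr19:34640739-34640918 on the plus strand.
Irgm2: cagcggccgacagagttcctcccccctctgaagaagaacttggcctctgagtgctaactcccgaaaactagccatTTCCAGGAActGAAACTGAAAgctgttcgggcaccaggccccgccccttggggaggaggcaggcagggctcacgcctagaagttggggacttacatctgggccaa
Igtp: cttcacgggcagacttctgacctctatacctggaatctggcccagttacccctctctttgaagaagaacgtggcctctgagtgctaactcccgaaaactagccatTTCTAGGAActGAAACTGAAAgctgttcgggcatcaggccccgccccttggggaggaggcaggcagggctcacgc
Isg15: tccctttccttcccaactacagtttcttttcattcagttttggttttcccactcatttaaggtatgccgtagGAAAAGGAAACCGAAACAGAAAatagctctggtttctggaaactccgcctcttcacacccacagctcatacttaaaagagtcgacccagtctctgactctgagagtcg
Ddx58: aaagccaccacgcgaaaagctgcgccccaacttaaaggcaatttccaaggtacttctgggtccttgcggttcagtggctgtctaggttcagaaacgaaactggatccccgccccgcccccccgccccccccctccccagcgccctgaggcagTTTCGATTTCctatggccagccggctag
Ifit1: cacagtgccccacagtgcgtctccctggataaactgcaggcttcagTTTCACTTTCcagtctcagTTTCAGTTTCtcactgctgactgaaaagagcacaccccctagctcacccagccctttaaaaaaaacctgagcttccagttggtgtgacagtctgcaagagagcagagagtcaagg

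The Irgm2 and Igtp promoters each held 1 GAS and 1 ISRE match with 2 bases between them, the GAS beginning at position -75 in Irgm2 and at position -45 in Igtp. Over the 100 bases that begin 40 bases before the GAS, 97 were identical between these promoters. Isg15 held 3 overlapping ISRE matches between positions -78 and -66 and no GAS. Ddx58 held 1 ISRE match at position 2, just after the start, and Ifit1 held 2 at positions -104 and -85. Among all 25 members with a promoter, 16 held an ISRE match and 9 a GAS match. By promoter, the ISRE core was in 56.7% of the members' promoters and in 3.44% of all 32851 promoters of the same length, and the GAS core was in 30% of the members' and 8.30% of all promoters. Of the 7 gamma-induced members with a promoter, 6 held an ISRE and 4 a GAS, and of the 18 type I members 10 held an ISRE and 5 a GAS. An ISRE was present in 3 of the 4 raised members with a promoter and in 13 of the 21 that were tested and not called. Irf7, the other raised member in the table, held neither motif in this window. Gbp6 and Ifi27, which also rose, had no promoter in the table.

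Depth differed between the groups. The authors' scaled fragment columns correspond to 3150439 to 6704228 estimated fragments per knockout library, against 8435731 to 11783852 per control library. Fbxw7 averaged 3.90 ± 0.113 FPKM (fragments scaled to gene length and library depth) in knockout and 6.37 ± 0.140 FPKM in control (SD, n = 3 each), a log2 change of -0.69 (SE 0.12, adjusted p = 0.0028, limma). For Fbxw7 alone the exact two-sided permutation test gave p = 0.1, the smallest that 3 against 3 samples allow. The defining myofibre markers were abundant in all 6 libraries. Their summed level was 28230 to 29760 FPKM in knockout, against 67550 to 70480 FPKM in control, and all 6 fell. In bulk tissue, fewer cells of a type and less RNA per cell cannot be told apart. The median log2 change of all 11659 genes tested was 0.21, so the members are read against that shift.

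Few of the members passed the test. Of the 36, 33 had a mean level of 0.5 FPKM or more across libraries and were tested, and 6 of these 33 rose in knockout and 0 fell at an adjusted p under 0.05 (limma, Benjamini-Hochberg over all tested genes). That is 18.2% raised, against 24.5% raised, 10.1% lowered and 34.6% called in either direction among all genes tested, so the share of members that rose was not above the background. At an unadjusted p under 0.05 the count of members lower in knockout was also 0. The median log2 change over the 33 was 0.32, against 0.21 for all genes tested. Of the 33, 27 were above 0, as were 7850 of all 11659 genes tested. In 14 members all knockout values lay above all control values, and in 1 they lay below, where 35.7% and 14.0% of all genes did so. Mx1, Mx2 and Gbp8 were below the filter, with Gbp8 at a mean of 0.185 FPKM just outside it and Oas1a at 0.532 FPKM just inside.

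**Figure D1:**
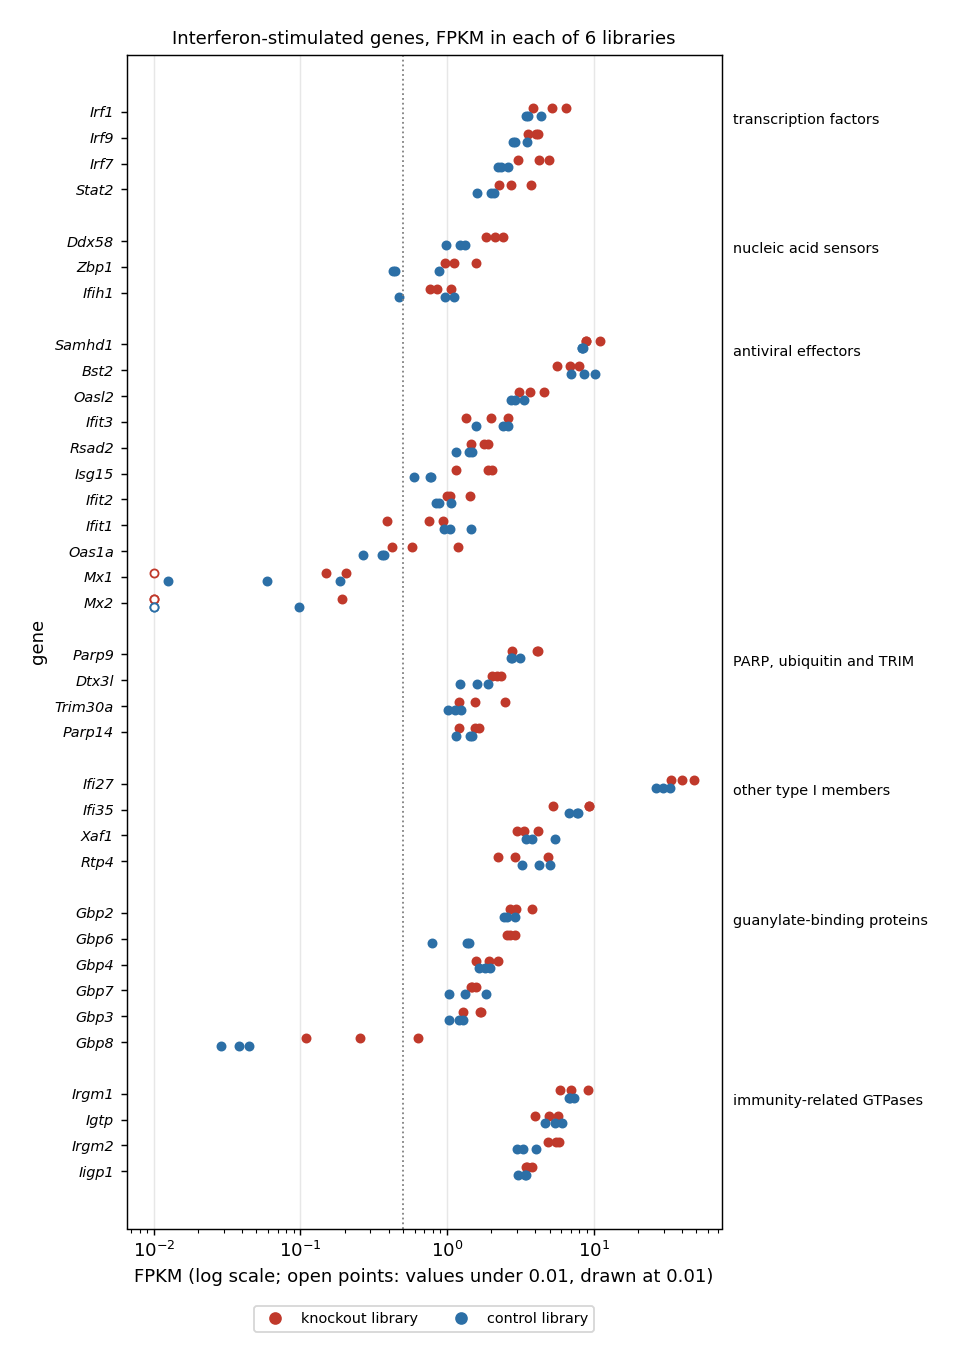
FPKM of each of the 36 members in the 3 knockout and 3 control libraries on a log axis, grouped by role, with the filter at 0.5 FPKM as a dotted line and values under 0.01 drawn as open points at 0.01. Ifi27 stands far above the rest at 26.8 to 48.7 FPKM, and most other members lie between about the filter and 10 FPKM in both groups.

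The levels were low in both groups. The 33 tested members had a median mean level of 2.40 FPKM, against 5.24 FPKM for all tested genes, and 30 of them stayed under 10 FPKM in every library. They rested on 3 to 378 estimated fragments per library, with a median of 29 in knockout replicate 1 and 94 in control replicate 2. The SE of the members' log2 changes had a median of 0.21. For 8 tested members the 95% interval of the log2 change held a log2 change of 1.

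The 6 members that rose came from 6 different functional groups. They were Gbp6, Irgm2, Isg15, Ddx58, Irf7 and Ifi27, in order of adjusted p. The gain was largest for Gbp6 at 2.25-fold and smallest for Ifi27 at 1.35-fold.

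Among the transcription factors, Irf7, the factor that amplifies type I interferon production, rose. Its levels were 4.27, 4.97 and 3.04 FPKM in knockout, against 2.24, 2.61 and 2.35 FPKM in control. Every knockout library lay above every control library, with knockout replicate 3 nearest to the controls. The log2 change of Irf7 was 0.72 (SE 0.20, 95% interval 0.26 to 1.18, adjusted p = 0.0242, limma). Under other scalings the change was 0.52 with median-of-ratios scaling (adjusted p = 0.0747) and 0.42 with quantile normalization (adjusted p = 0.154), and on the scaled fragment columns it was 0.49 (adjusted p = 0.0627). The call was also lost without knockout replicate 1 or 2 or control replicate 1 or 3, with adjusted p between 0.0612 and 0.0837.

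Neither Stat2 nor Irf9 of ISGF3 passed the test. Stat2 was at 2.24, 2.72 and 3.77 FPKM in knockout, against 1.99, 2.09 and 1.60 FPKM in control, a log2 change of 0.57 with adjusted p = 0.0789, or 0.0403 without knockout replicate 1 and 0.0289 on the scaled fragment columns. Irf9 was at 3.59, 4.01 and 4.18 FPKM in knockout, against 2.81, 3.50 and 2.91 FPKM in control, a log2 change of 0.35 with adjusted p = 0.112. In both genes the 3 knockout values lay above the 3 control values. Irf1, a factor induced strongly by interferon gamma, was at 6.46, 5.17 and 3.88 FPKM in knockout, against 3.56, 4.40 and 3.47 FPKM in control. Its groups overlapped and its log2 change was 0.41 with adjusted p = 0.148, or 0.0466 without knockout replicate 3. The annotated locus of Irf7 overlaps Phrf1 by 45 bases and that of Irf1 overlaps Gm17334 by 907 bases on the opposite strand, and whether the authors' counting used the strand is not stated.

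The 3 nucleic acid sensors had the highest median among the roles, 0.80 on the log2 scale. Ddx58, which encodes the viral RNA sensor RIG-I, rose. It was at 2.13, 1.83 and 2.41 FPKM in knockout, against 1.32, 1.23 and 0.988 FPKM in control, with no overlap. The log2 change of Ddx58 was 0.80 (SE 0.21, 95% interval 0.32 to 1.27, adjusted p = 0.0184, limma), with adjusted p = 0.0655 without knockout replicate 3 and a change of 0.46 (adjusted p = 0.101) with quantile normalization. Zbp1, a sensor of Z-form nucleic acids that can start necroptosis, was at 1.58, 0.968 and 1.12 FPKM in knockout, against 0.887, 0.429 and 0.440 FPKM in control. All Zbp1 knockout values lay above the control values, on 5 to 12 estimated fragments a library. Its log2 change was 0.98 (SE 0.34) with adjusted p = 0.0516, or 0.0276 without control replicate 1, 0.0474 with a pseudocount of 1 FPKM and 0.0478 with no trend. It was 1.61 (adjusted p = 0.0106) on the scaled fragment columns. Ifih1, which encodes the sensor MDA5, overlapped between groups, at 0.763 to 1.06 FPKM in knockout and 0.471 to 1.11 FPKM in control, with a log2 change of 0.12 (adjusted p = 0.800).

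Of the 11 antiviral effectors 9 were tested, and Isg15 alone rose among them. Isg15 encodes a ubiquitin-like protein that is joined to other proteins in infected cells. It was at 2.04, 1.16 and 1.902 FPKM in knockout, against 0.778, 0.767 and 0.596 FPKM in control, and the groups did not overlap. These levels rested on 5, 7 and 9 estimated fragments in knockout, against 7, 7 and 4 in control. The log2 change was 1.11 (SE 0.27, 95% interval 0.49 to 1.74, adjusted p = 0.0148, limma), with adjusted p = 0.0509 without knockout replicate 3, 0.0625 on the scaled fragment columns and a change of 0.74 (adjusted p = 0.0766) with quantile normalization.

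The Ifit genes encode proteins that bind foreign RNA and block its translation, and none of the 3 passed the test. Ifit1 was at 0.390, 0.940 and 0.749 FPKM in knockout, against 1.05, 1.45 and 0.954 FPKM in control. Every knockout value of Ifit1 lay below every control value, the only member of which this was so. The log2 change of Ifit1 was -0.71 (SE 0.34, 95% interval -1.48 to 0.07, adjusted p = 0.138, limma), and it passed the threshold under quantile normalization, at -1.05 with adjusted p = 0.0353. Ifit2 had a log2 change of 0.28 (adjusted p = 0.401), with 0.999, 1.04 and 1.42 FPKM in knockout and 0.881, 1.06 and 0.843 FPKM in control. Ifit3 was at 1.996, 2.59 and 1.34 FPKM in knockout and 1.58, 2.62 and 2.40 FPKM in control, with a log2 change of -0.16 (adjusted p = 0.685). The groups overlapped for both genes, and 51.2% of the 50-base words of Ifit3 also occur in its near copy Ifit3b, so its value is uncertain.

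The remaining effectors gave no call. Oas1a, a synthetase of the RNase L activator, was at 0.423, 1.19 and 0.579 FPKM in knockout, against 0.267, 0.370 and 0.358 FPKM in control. The spread in knockout came from replicate 2, on 3 to 21 estimated fragments a library, and 57.6% of the 50-base words of Oas1a are shared with Oas1g. Its log2 change was 0.85 (95% interval -0.08 to 1.77, adjusted p = 0.137, limma), with adjusted p = 0.0469 without knockout replicate 1. Bst2 encodes tetherin, which holds budding virus at the cell surface, and it stood at 5.63, 6.87 and 7.93 FPKM in knockout, against 8.56, 10.2 and 7.06 FPKM in control. Its groups overlapped and the log2 change was -0.33 (adjusted p = 0.175), with -0.53 (adjusted p = 0.0289) under median-of-ratios scaling and -0.54 (adjusted p = 0.0306) under quantile normalization. Samhd1, which degrades deoxynucleotides, was at 8.86, 10.97 and 8.94 FPKM in knockout, against 8.30, 8.43 and 8.35 FPKM in control, a log2 change of 0.19 (adjusted p = 0.251) without overlap. Oasl2 and Rsad2, which encodes viperin, overlapped between groups, with log2 changes of 0.32 (adjusted p = 0.200) and 0.33 (adjusted p = 0.247).

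The dynamin-like GTPases Mx1 and Mx2 were near the limit of detection. Mx1 was at 0, 0.149 and 0.204 FPKM in knockout, against 0.187, 0.0592 and 0.0125 FPKM in control, on at most 8 estimated fragments. Mx2 had 3 estimated fragments in knockout replicate 3 and 3 in control replicate 3, and 0 in the other 4 libraries. Neither gene was tested.

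None of the 4 PARP, ubiquitin and TRIM members passed the test, with a median log2 change of 0.39. Dtx3l, a ubiquitin ligase that works as a complex with Parp9, was at 2.04, 2.20 and 2.32 FPKM in knockout, against 1.60, 1.903 and 1.23 FPKM in control. The groups did not overlap, and the log2 change was 0.46 (adjusted p = 0.114), or 0.49 (adjusted p = 0.0377) on the scaled fragment columns. Parp9, which overlaps Dtx3l by 682 bases on the opposite strand, had a log2 change of 0.32 (adjusted p = 0.222) and Parp14 one of 0.11 (adjusted p = 0.723). Trim30a was highest in knockout replicate 2 at 2.47 FPKM, with 1.55 and 1.21 FPKM in the other two knockout libraries and 1.017 to 1.25 FPKM in control, a log2 change of 0.53 (adjusted p = 0.171).

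Of the other 4 type I members, Ifi27 rose. Ifi27 encodes a small mitochondrial and nuclear-envelope protein and was the most abundant member. It was at 33.9, 48.7 and 40.1 FPKM in knockout, against 33.2, 26.8 and 29.9 FPKM in control. Knockout replicate 1 and control replicate 1 lay within 1 FPKM of each other, and the groups did not overlap. The log2 change was 0.44 (SE 0.14, 95% interval 0.12 to 0.76, adjusted p = 0.0405, limma). With median-of-ratios scaling it was 0.23 (adjusted p = 0.225), and the call was lost without knockout replicate 2 or 3 or control replicate 2 or 3, with adjusted p between 0.0793 and 0.127, and with quantile normalization, no filter or no trend, with adjusted p between 0.0647 and 0.0904. The other 3 overlapped between the groups. Ifi35 had a log2 change of 0.05 (adjusted p = 0.878), Rtp4 one of -0.36 (adjusted p = 0.345), and Xaf1, which binds the apoptosis inhibitor XIAP, one of -0.25 (adjusted p = 0.376).

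The guanylate-binding proteins are GTPases that gather on vacuoles holding intracellular pathogens, and Gbp6 rose in the knockout. Gbp6 was at 2.58, 2.68 and 2.91 FPKM in knockout, against 1.38, 1.42 and 0.785 FPKM in control. The knockout values lay close together and every one was well above the controls. The means were 2.72 ± 0.168 FPKM in knockout and 1.19 ± 0.354 FPKM in control (SD, n = 3 each), a log2 change of 1.17 (SE 0.24, 95% interval 0.61 to 1.73, adjusted p = 0.00738, limma). Gbp6 was called in all 14 alternatives in which it was tested.

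The identity of the Gbp6 signal is uncertain. Of its 50-base transcript words 90.2% are shared with the annotated gene Gm43302, which covers the same locus, and 62.3% with Gbp10. Gbp6 and Gbp10 summed to 5.69, 5.43 and 5.68 FPKM in knockout, against 3.19, 2.41 and 1.88 FPKM in control, so the groups did not overlap for the sum either.

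The other guanylate-binding proteins did not pass the test. Gbp3 was at 1.68, 1.71 and 1.28 FPKM in knockout, against 1.28, 1.22 and 1.04 FPKM in control, with its lowest knockout value just above its highest control value and a log2 change of 0.37 (adjusted p = 0.214). Gbp2, Gbp4 and Gbp7 overlapped between groups, with log2 changes of 0.24 (adjusted p = 0.327), 0.07 (adjusted p = 0.816) and 0.13 (adjusted p = 0.695). Gbp8 was below the filter, at 0.636, 0.255 and 0.109 FPKM in knockout, against 0.0286, 0.0444 and 0.0384 FPKM in control. Those levels rested on 6, 6 and 2 estimated fragments in knockout, against 1 in each control library, and Gbp8, Gbp4 and Gbp9 share an annotated locus.

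Irgm2 was the immunity-related GTPase that rose. These GTPases act in mice on membranes of pathogen vacuoles, and the Irgm proteins regulate the others. Irgm2 was at 5.76, 4.91 and 5.51 FPKM in knockout, against 3.31, 4.05 and 3.02 FPKM in control. No knockout value overlapped the controls, and the means were 5.40 ± 0.436 FPKM in knockout and 3.46 ± 0.533 FPKM in control (SD, n = 3 each). The log2 change of Irgm2 was 0.63 (SE 0.16, 95% interval 0.28 to 0.99, adjusted p = 0.0143, limma), with 0.36 (adjusted p = 0.0929) under quantile normalization.

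Igtp, the neighbour whose promoter nearly matches, did not follow. It was at 5.75, 4.98 and 3.97 FPKM in knockout, against 4.64, 6.04 and 5.44 FPKM in control, overlapping, with a log2 change of -0.14 (adjusted p = 0.560). The Irgm2 annotation, chr11:58199618-58222782 on the plus strand, overlaps that of Igtp, chr11:58199556-58207591, by 7974 bases, so fragments of the shared stretch could have been split between them. The Irgm2 promoter shown above, chr11:58214827-58215006, lies beyond the end of Igtp. The overlap therefore rests on the part of the Irgm2 annotation upstream of that promoter. Summed, Irgm2 and Igtp came to 11.5, 9.89 and 9.48 FPKM in knockout, against 7.95, 10.1 and 8.46 FPKM in control. The groups overlapped for the sum. In transcript sequence, 6.29% of the 50-base words of Irgm2 occur in Igtp and 12.3% of those of Igtp in Irgm2. Irgm1 had a log2 change of 0.04 (adjusted p = 0.859). Iigp1 was at 3.51, 3.80 and 3.46 FPKM in knockout, against 3.38, 3.45 and 3.05 FPKM in control, which did not overlap by a small margin, a log2 change of 0.12 (adjusted p = 0.528).

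**Figure D2:**
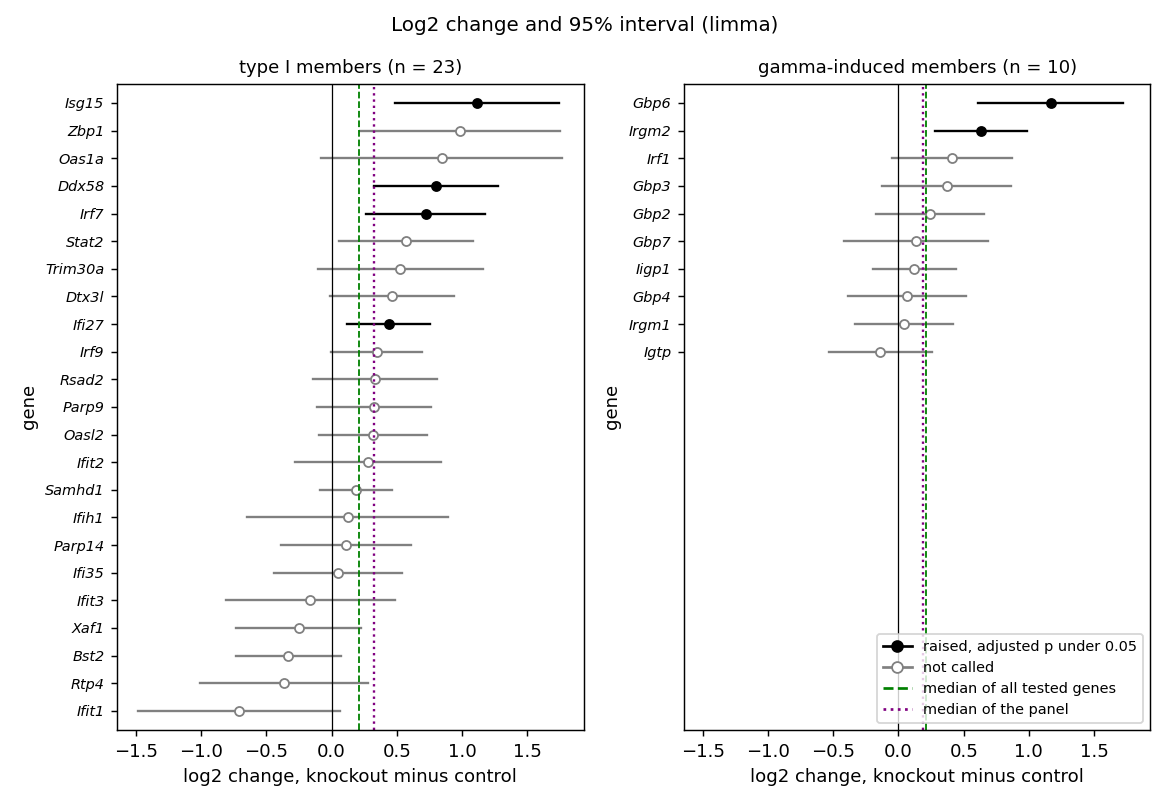
Log2 change of each tested member, knockout minus control, with its 95% interval from limma, for 23 type I members on the left and 10 gamma-induced members on the right; filled black points rose at an adjusted p under 0.05, the dashed line is the median of all tested genes and the dotted line the median of the class. Most intervals cross 0 in both panels, and the points spread from -0.71 (Ifit1) to 1.17 (Gbp6).

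The classes overlapped in their changes, and the difference between them was not tested. Of the type I members, 4 of 23 rose (17.4%, against 24.5% of all genes) and the median log2 change was 0.32, against 0.21 for all genes. Of the gamma-induced members, 2 of 10 rose (20%) and the median was 0.19. Without control replicate 1 the gamma-induced median was 0.33 and the type I median 0.29, and without knockout replicate 1 they were 0.12 and 0.37, so the order of the medians turned without control replicate 1. Without knockout replicate 3, 1 type I member was called, and without knockout replicate 2 or control replicate 3, 2 were. Over all genes, 2211, 2029 and 2117 rose without knockout replicate 3, knockout replicate 2 and control replicate 3, against 2860 in the main fit. Changes ran between -0.71 and 1.11 among type I members and between -0.14 and 1.17 among gamma-induced members. The knockout values lay above the control values in 10 of 23 type I members and in 4 of 10 gamma-induced members, where 35.7% of all tested genes did so.

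Which knockout library was highest was counted in each class, without a test of the difference. Knockout replicate 1, the library with the fewest fragments, held the highest knockout value in 4 of 23 type I members and in 7 of 10 gamma-induced members, where 28.9% of all tested genes had it highest. The summed level of the type I members was 93.4, 123 and 109 FPKM in knockout, against 92.0, 89.0 and 87.4 FPKM in control, and Ifi27 made up a large share of it. The summed level of the gamma-induced members was 43.1, 36.9 and 32.8 FPKM in knockout, against 30.9, 33.1 and 29.6 FPKM in control. Knockout replicate 3 thus overlapped the controls in the gamma-induced sum.

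Genes of some other cell types moved with genotype. Markers of B cells summed to 14.0, 17.2 and 15.4 FPKM in knockout, against 0.104, 0.231 and 0.0855 FPKM in control. Of the 8 genes, 5 were listed at 0 in all control libraries. T cell markers summed to 18.04, 12.4 and 15.2 FPKM in knockout, against 0.811, 0.953 and 0.386 FPKM in control. All 8 markers of each cell type were higher in every knockout library than in any control library, and every tested one rose.

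Lymph node vessel and stroma markers summed to 25.2 to 34.1 FPKM in knockout, against 7.24 to 9.46 FPKM in control. Of these, 4 of 6 were at 0 in all controls, and 1 of the 4, Chst4, was also at 0 in all knockout libraries. The markers of all leukocytes summed to 15.0 to 20.3 FPKM in knockout, against 3.998 to 6.44 FPKM in control, and all 3 rose. Ptprc, which encodes CD45, was at 3.24, 3.43 and 2.78 FPKM in knockout, against 0.768, 0.698 and 0.475 FPKM in control. Macrophage markers summed to 103 to 125 FPKM in knockout, against 89.9 to 98.0 FPKM in control. Of these 8 genes, 2 rose (25%, against 24.5% of all genes), with a median log2 change of 0.28, against 0.21 for all genes. All 3 plasmacytoid dendritic cell markers and all 4 natural killer cell markers were below the filter. The plasmacytoid dendritic cell sum, 0.371 to 1.58 FPKM in knockout, against 0.0976 to 0.135 FPKM in control, was mostly Spib, which B cells also express. Siglech, the more specific marker, was at 0, 0.04997 and 0.188 FPKM in knockout, against 0.111, 0.0976 and 0.135 FPKM in control. The natural killer cell sum, 0.700 to 1.14 FPKM in knockout and 0 in every control, was mostly Nkg7, which T cells also express, and Klrb1c was at 0 in all 6 libraries. Endothelial markers summed to 52.2 to 60.5 FPKM in knockout, against 52.0 to 57.2 FPKM in control, with 0 of 5 called. Conventional dendritic cell markers summed to 2.22 to 3.62 FPKM in knockout, against 2.02 to 2.80 FPKM in control, neutrophil markers to 2.92 to 4.95 FPKM in knockout, against 0.930 to 2.29 FPKM in control, adipocyte markers to 32.5 to 36.3 FPKM in knockout, against 16.55 to 17.3 FPKM in control, and Schwann cell markers to 74.3 to 78.4 FPKM in knockout, against 44.98 to 49.96 FPKM in control. Of the 5 neutrophil markers, 0 were higher in every knockout library than in any control library, and 0 of 2 tested were called. The part of all these cell types in the members' changes was not tested.

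**Figure D3:**
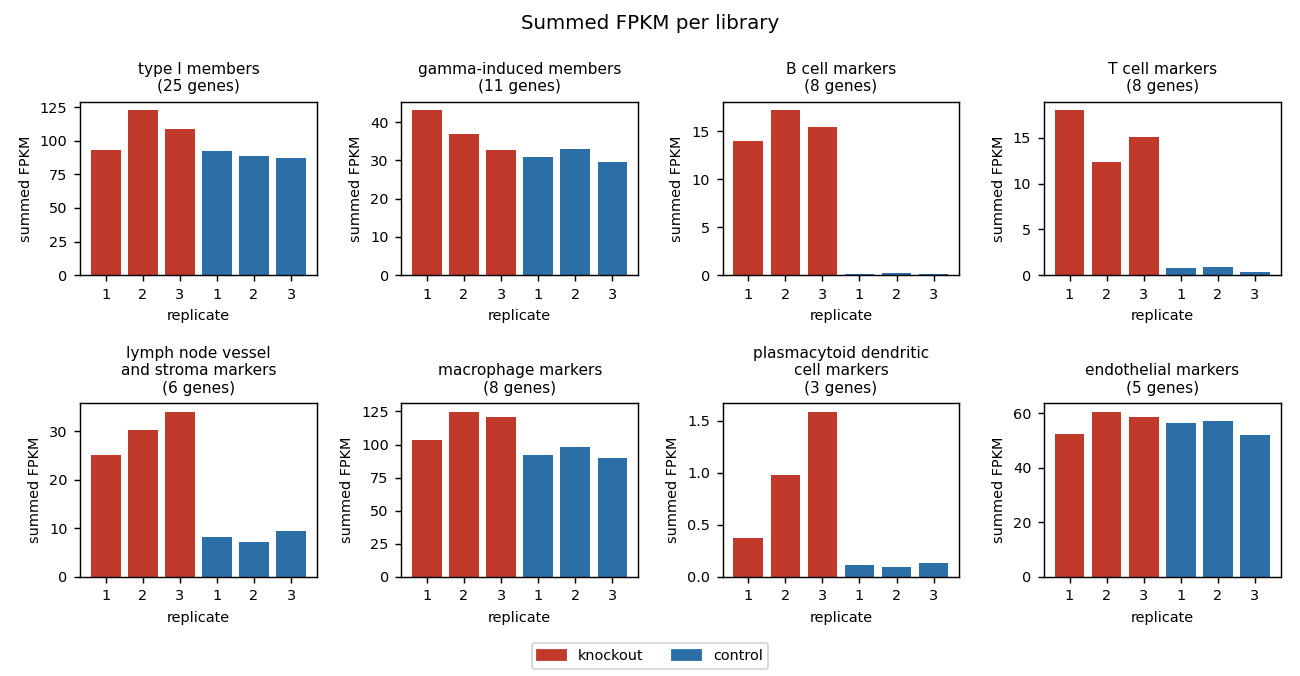
Summed FPKM of cell type marker lists and of the type I and gamma-induced members in each library, knockout libraries left of control libraries. The B cell and T cell sums are near 0 in control and at 12.4 to 18.04 FPKM in knockout, while the type I and gamma-induced sums lie at 93.4 to 123 and 32.8 to 43.1 FPKM in knockout, against 87.4 to 92.0 and 29.6 to 33.1 FPKM in control.

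Other genes of the pathway had a larger share of raised genes than the members, a difference that was not tested. Their lists were drawn up by function, but with earlier results of these data known. Over 6 lists, 72 genes were tested, of which 33 rose (45.8%, against 24.5% of all genes) and 2 fell (2.78%, against 10.1%), with a median log2 change of 0.54. The count raised was 20 without knockout replicate 2, 21 without control replicate 2 or with median-of-ratios scaling, 21 of fewer genes with the filter at 2 FPKM, and 17 with quantile normalization. The count over all genes moved too, from 2860 in the main fit to 2029 without knockout replicate 2 and 2228 without control replicate 2. It was 1724 (14.8%) with median-of-ratios scaling, 2388 with the filter at 2 FPKM and 1715 (14.7%) with quantile normalization. All 19 listed ligands found in the table, type I, type II and type III, were listed at 0 in all 6 libraries.

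Of 5 tested receptors, 2 rose and 1 fell. Ifngr1, the ligand-binding chain of the gamma receptor, was at 22.8, 22.8 and 20.7 FPKM in knockout, against 15.5, 15.8 and 14.5 FPKM in control, a log2 change of 0.53 (adjusted p = 0.00288, limma). Ifngr2, its signalling partner, fell to 17.9, 17.1 and 13.3 FPKM in knockout, against 22.8, 25.2 and 19.6 FPKM in control, a log2 change of -0.49 (adjusted p = 0.0277). That call was lost without knockout replicate 3 or control replicate 1 or 2, with adjusted p between 0.0727 and 0.0963, and with no filter (adjusted p = 0.0570) or no trend (adjusted p = 0.0614). Ifnar2 of the type I receptor averaged 7.98 ± 1.33 FPKM in knockout and 5.41 ± 0.438 FPKM in control (SD, n = 3 each), a log2 change of 0.54 (adjusted p = 0.0221). It was not called without knockout replicate 3 or control replicate 2 or 3 (adjusted p between 0.0556 and 0.0771) or with median-of-ratios scaling (0.34, adjusted p = 0.110) or quantile normalization (0.31, adjusted p = 0.149). Ifnar1 did not pass the test, at 0.38 (adjusted p = 0.101).

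Of 11 kinases, STATs and negative regulators, 4 rose and 1 fell. Jak2, the kinase bound to IFNGR2, fell to 4.89, 5.32 and 5.19 FPKM in knockout, against 9.09, 9.14 and 8.21 FPKM in control. Its log2 change was -0.77 (adjusted p = 0.00142, limma), and the groups did not overlap. Ptpn6, which encodes the phosphatase SHP-1 of blood cells, was at 3.06, 3.06 and 2.42 FPKM in knockout, against 0.729, 0.648 and 1.07 FPKM in control, a log2 change of 1.71 (adjusted p = 0.000984). Stat3 rose by 0.65 (adjusted p = 0.0116). Ptpn2, a phosphatase acting on JAK1, rose by 0.46 (adjusted p = 0.0381), a call lost without knockout replicate 2 or 3 or control replicate 1 or 2 (adjusted p between 0.0689 and 0.126). It was 0.26 (adjusted p = 0.228) with median-of-ratios scaling and 0.27 (adjusted p = 0.213) with quantile normalization, and adjusted p was 0.0627 with no filter and 0.0602 with no trend.

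Among 15 tested genes that sense nucleic acids or relay that signal, 7 rose and 0 fell. Tmem173, which encodes the DNA-sensing adaptor STING, averaged 3.34 ± 0.0841 FPKM in knockout and 1.505 ± 0.136 FPKM in control (SD, n = 3 each), a log2 change of 1.10 (adjusted p = 0.0013, limma). Traf3, which links adaptors to TBK1, changed by 1.07 (adjusted p = 0.00142). Mavs, the adaptor of RIG-I and MDA5, averaged 22.2 ± 2.04 FPKM in knockout and 14.1 ± 1.26 FPKM in control, a log2 change of 0.66 (adjusted p = 0.00274). Trex1, a nuclease that clears cytosolic DNA, changed by 0.66 (adjusted p = 0.00651).

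Further type I and gamma-induced genes outside the members also rose in part. Of 28 tested type I genes 14 rose and 0 fell, with a median log2 change of 0.57. Shisa5 averaged 48.4 ± 7.30 FPKM in knockout and 19.8 ± 1.13 FPKM in control (SD, n = 3 each), a log2 change of 1.27 (adjusted p = 0.000125, limma). Epsti1 changed by 1.78 (adjusted p = 0.00241), Uba7, the activating enzyme for ISG15, by 1.11 (adjusted p = 0.00285), and Sp100 of nuclear bodies by 0.58 (adjusted p = 0.0055).

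Of 13 tested gamma-induced genes 6 rose and 0 fell, with a median of 0.63. Cxcl10, a chemokine that attracts T cells, was at 2.88, 1.68 and 2.64 FPKM in knockout, against 0.212, 0.345 and 0.0948 FPKM in control, a log2 change of 3.02 (adjusted p = 0.000547, limma). Gbp10, subject to the sharing with Gbp6, changed by 1.13 (adjusted p = 0.00786). Nlrc5, the activator of MHC class I genes, changed by 1.38 (adjusted p = 0.00872) and the immunoproteasome subunit Psmb9 by 0.98 (adjusted p = 0.0154). Psmb9 was not called with quantile normalization (adjusted p = 0.0962) or on the scaled fragment columns (adjusted p = 0.140).

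**Figure D4:**
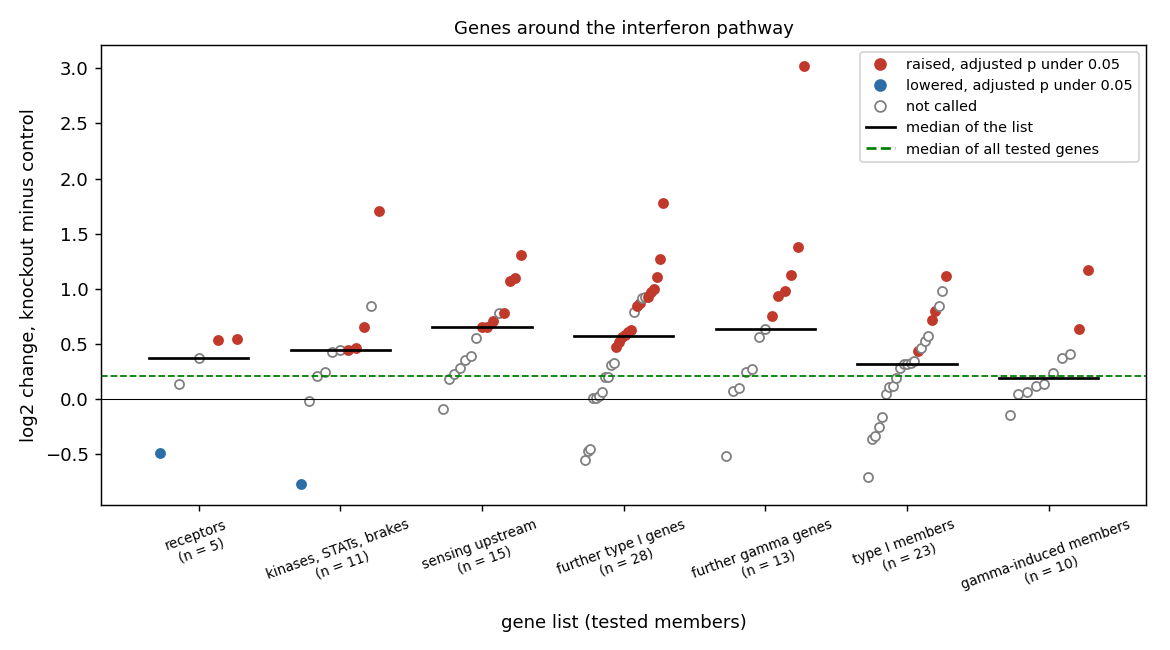
Log2 change, knockout minus control, of every tested gene of the member classes and the pathway lists, 1 point a gene, with called genes filled and a bar at each list's median. The medians of the further type I (0.57) and further gamma-induced (0.63) genes lie above those of the type I (0.32) and gamma-induced (0.19) members, a difference that was not tested.

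The position of the members relative to 0 depended on the scaling between libraries. Median-of-ratios scaling moved the median of all tested genes to 0.01 and quantile normalization to 0.00 or just below it, against 0.21 on the FPKM as deposited. With median-of-ratios scaling 4 members rose and 1 fell, beside 14.8% raised and 17.3% lowered among all genes, and the type I and gamma-induced medians were 0.12 and -0.0055. With quantile normalization 1 member rose and 2 fell, beside 14.7% raised and 14.5% lowered, and the medians were 0.02 and -0.12. Relative to the median of all genes, the type I median was higher by 0.11 with FPKM as deposited, 0.11 with median-of-ratios scaling and 0.024 with quantile normalization. The gamma-induced median differed from it by -0.02, -0.02 and -0.12 under these 3 scalings.

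**Figure D5:**
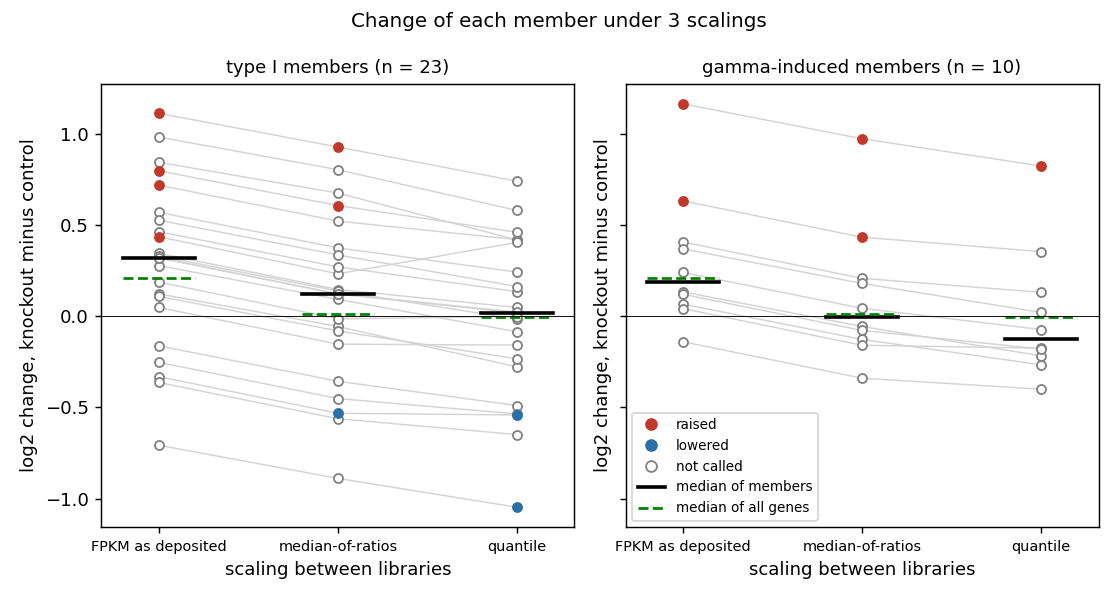
Log2 change of each tested member, knockout minus control, under FPKM as deposited, median-of-ratios scaling and quantile normalization, with the median of all tested genes marked for each. Members shift down together with the median of all genes, which is 0.21 as deposited and 0.01 under median-of-ratios scaling, and Gbp6 alone is called raised under all 3.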

How the data were processed

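Quadriceps RNA of 3 knockout and 3 control samples, grouped by the labelled genotype, was depleted of ribosomal RNA and made into stranded libraries, per the labels' protocols. Per the submitters' processing notes, reads were trimmed with cutadapt 1.9.3, aligned with HISAT2 2.0.4 to mm10 and quantified with Cufflinks and Cuffdiff. The FPKM values were used as the authors deposited them. Neither their scaling between libraries nor the use of strand is stated by the sources. The columns headed as counts are a scaled signal that the authors deposited, in which fragments per gene are multiplied by 1 constant per library. Between 92.6% and 94.1% of their values above 0 were whole multiples within 0.1, too few for a count test, so they gave only depths and an added alternative.

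Values of symbols on several rows (79 of 22481) were added together. log2(FPKM + 0.1) was compared with limma 3.58.1 in R 4.3.3, two-sided and with the trend option of its empirical Bayes step. Benjamini-Hochberg adjustment ran over the 11659 symbols at or above the filter of 0.5 FPKM. Fold changes on this scale understate those of low genes. Coordinates are of the mm10 annotation GENCODE M21. The members, classes and gene lists were chosen with earlier results of these data known. All members are accounted for, up to 4 called genes with the smallest p are named per pathway list, and exceptions are stated. Alternatives were pseudocounts of 1 and 0.01, no filter, a filter at 2 FPKM, median-of-ratios and quantile scaling, no trend, a replicate block, each library left out in turn and, added after seeing the data, the scaled fragment columns (pseudocount 1).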

Additional observations from a re-analysis of the deposited data

How the results depend on the processing

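Of the members' log2 changes under all alternatives, 416 kept direction and side of the threshold, 13 newly passed it, 22 lost it and 29 reversed, all 29 among members that were not called. The cause of these changes was not tested. Gbp6 was called in 14 of 14 alternatives, Irgm2 in 14 of 15, Ddx58 in 12 of 14, Isg15 in 11 of 14, Irf7 in 8 of 15 and Ifi27 in 6 of 15. Fbxw7 was called lower in all of them.

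With median-of-ratios scaling 1724 genes rose and 2018 fell, 1 member fell, 21 pathway genes rose, and the medians were 0.12 for type I and -0.0055 for gamma-induced members. With quantile normalization 1715 genes rose, 1 member rose and 2 fell, 17 pathway genes rose and 4 fell, and the medians were 0.019 and -0.12. With the filter at 2 FPKM, which left 18 members, 3 members and 21 pathway genes rose, beside 2388 of all genes. With no filter, or with no trend, 1 pathway gene fell. Leaving out 1 library gave 20 (without knockout replicate 2) to 30 raised and 1 to 3 lowered pathway genes, 4 to 7 raised members and a gamma-induced median of 0.12 to 0.33, the highest without control replicate 1. Over all genes, 2029 (without knockout replicate 2) to 2786 (without knockout replicate 1) then rose.

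Whether the replicate numbers pair the samples could not be settled. Deviations of same-numbered samples correlated at -0.07, 0.20 and 0.18, and those of differently numbered samples at -0.29 to 0.18. With the replicate block 2655 genes rose and 1173 fell, and 6 members rose, with Zbp1 among them (adjusted p = 0.0363) and Ifi27 not (adjusted p = 0.0701).

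Under quantile normalization the sign turned for Ifit2 (-0.084), Ifi35 (-0.16), Ifih1 (-0.28), Rsad2 (-0.015), Parp14 (-0.23), Samhd1 (-0.0014), Gbp2 (-0.072), Gbp4 (-0.27), Gbp7 (-0.22), Irgm1 (-0.17) and Iigp1 (-0.18). Under median-of-ratios scaling it turned for Ifi35 (-0.15), Ifih1 (-0.055), Parp14 (-0.080), Samhd1 (-0.014), Gbp4 (-0.13), Gbp7 (-0.055), Irgm1 (-0.16) and Iigp1 (-0.077), and on the scaled fragment columns for Xaf1 (0.30). Leaving out 1 library gave -0.37 to 0.079 for Ifit3, -0.086 to 0.32 for Ifi35, -0.21 to 0.33 for Ifih1, -0.045 to 0.20 for Gbp4, -0.049 to 0.34 for Gbp7, -0.26 to 0.0019 for Igtp and -0.12 to 0.19 for Irgm1. Depth limits low members most, with Isg15 on 4 to 9 estimated fragments a library.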

Other observations

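The deposited table carries Gene Ontology labels for its genes, and these give lists that do not rest on the choice of members, although they were looked up after the data were seen. Of 59 tested genes labelled with defense response to virus, 12 rose and 2 fell in knockout, with a median log2 change of 0.30. Of 24 tested genes labelled with the cellular response to interferon gamma, 11 rose and 3 fell, with a median of 0.37. Of 19 tested genes labelled with the cellular response to interferon beta, 5 rose and 2 fell, with a median of 0.12. Under the separate label response to interferon gamma, 1 of 8 tested genes rose and 0 fell, with a median of 0.34. Under response to interferon beta, 2 of 5 rose and 0 fell, with a median of 0.20. Over all tested genes 24.5% rose and 10.1% fell, with a median of 0.21. Some labels follow the classes used in the report and others cross them. The defense response to virus label is carried by 12 members, all 12 of them type I. The cellular response to interferon beta label is carried by 7 members, of which 5 are gamma-induced (Gbp2, Gbp3, Gbp6, Igtp and Iigp1). The 6 members with the cellular response to interferon gamma label are all guanylate-binding proteins of the gamma-induced class. Bst2, a type I member, carries the response to interferon gamma label, and Bst2 and Xaf1 carry the response to interferon beta label.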
